A study of Rattus norvegicus with 12 samples.

Results

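The genes described here are 38 components of Wnt signaling, chosen by symbol from the 22850 features of the expression tables to cover ligands, secreted antagonists, receptors, R-spondins, transcriptional effectors and feedback inhibitors. They were measured in primary atrial fibroblasts of 1- to 3-day-old Sprague-Dawley rats, separated from other atrial cells by differential adhesion and not sorted. All cells received angiotensin II (AngII) at 1 μmol/L for 48 h. The AngII group received nothing else, the AngII+HNG group also received HNG at 10 μmol/L, and the AngII+MOTS-c group also received MOTS-c at 5 μmol/L, with each peptide given before AngII. HNG is the Gly14 analogue of humanin, and humanin and MOTS-c are short peptides encoded in mitochondrial DNA. Each treatment was represented by 4 libraries, described as biological replicates. Cells without AngII were not analysed here. The doses of the peptides differed, so that the peptide and its dose cannot be told apart.

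Wnt ligands are secreted lipid-modified glycoproteins that bind Frizzled receptors. In the canonical branch, Frizzled and the co-receptors Lrp5 or Lrp6 block the destruction of β-catenin, which then activates target genes together with TCF/LEF factors, and in the noncanonical branches ligands such as Wnt5a act through Ror receptors, planar polarity proteins or calcium. Secreted Frizzled-related proteins and Wif1 bind ligands outside the cell. Dickkopf proteins such as Dkk2 bind the Lrp co-receptors, and R-spondins keep receptors at the surface. Wnt signaling is known as a contributor to fibroblast activation in cardiac scarring.

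The libraries held 27960586 to 38322354 counts, and 3 counts were worth 0.0783 to 0.107 CPM, the unit of counts scaled by TMM for library size. This floor reflects counting error alone. Markers of fibroblasts summed to 59676 to 67183 CPM over the 12 libraries, while 8 cardiomyocyte markers summed to 4587 to 6194 CPM, so that cardiomyocyte RNA was present in every library. The AngII+HNG library of replicate 3 stood apart in its group, with a chi-square value per well-counted gene of 16.0 to 21.7 against its group mates, where counting noise alone gives about 1, whereas every other pair within a treatment gave 4.71 to 9.92. In the library names, replicates 2 and 3 of each treatment shared the number 3, and the AngII+MOTS-c library of replicate 1 carried the number 2 where the other libraries of replicate 1 carried 1. Whether a shared number marks a shared cell preparation is not given in the sources used here, and if it does, there were fewer than 4 independent replicates in each treatment. Replicates 2 and 3 were the closest pair with AngII, at 4.71, but not with AngII+HNG or AngII+MOTS-c, and no pair of libraries agreed within sampling noise. The p-values below measure the spread between these libraries, which may in part be technical. All 38 genes had counts in at least 1 library, and 36 passed the filter on low counts in each comparison. The smallest count of any of the 36 was 11 in a single library. Wnt16, with 0 to 10 counts, and Notum, a secreted enzyme that removes the lipid of Wnt ligands, with 4 counts in 1 AngII+MOTS-c library and 0 in the other 11, were not tested.

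Expression per gene length, in FPKM, differed widely between the roles. Among the ligands, Wnt4 was the most abundant transcript at a mean of 7.50 FPKM over the 12 libraries and made up 59.4% to 68.5% of the summed ligand FPKM. Wnt5a, a noncanonical ligand, had a mean of 1.99 FPKM, and each of the other ligands remained below 1 FPKM on average. The secreted antagonists were led by Dkk3, a divergent Dickkopf protein, at a mean of 44.5 FPKM, followed by Sfrp1 at 21.3 and Frzb at 7.30 FPKM. Sfrp2 had a mean of 2.38 FPKM.

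The Frizzled receptors were expressed at a mean of 50.6 FPKM for Fzd2, 44.7 for Fzd1, 29.7 for Fzd4 and 14.2 for Fzd7, and the remaining members lay between 1.87 FPKM for Fzd3 and 8.23 FPKM for Fzd8. Lrp5 and Lrp6 had means of 27.8 and 15.5 FPKM, above those of the receptor tyrosine kinases Ror2 at 6.45 and Ror1 at 3.35 FPKM. Rspo1 was the most abundant R-spondin, with a mean of 3.32 FPKM. Ctnnb1, which encodes β-catenin, had a mean of 107 FPKM. Of its DNA-binding partners of the TCF/LEF family, Tcf7 and Lef1 had means of 1.23 and 0.235 FPKM. Tcf7l1 and Tcf7l2, also of this family but counted in the list of further components described below, had means of 15.8 and 8.71 FPKM. The feedback inhibitors ranged from 0.273 FPKM for Axin2, a scaffold of the β-catenin destruction complex, to 11.5 FPKM for Nkd2, which binds Dishevelled.

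**Figure D1:**
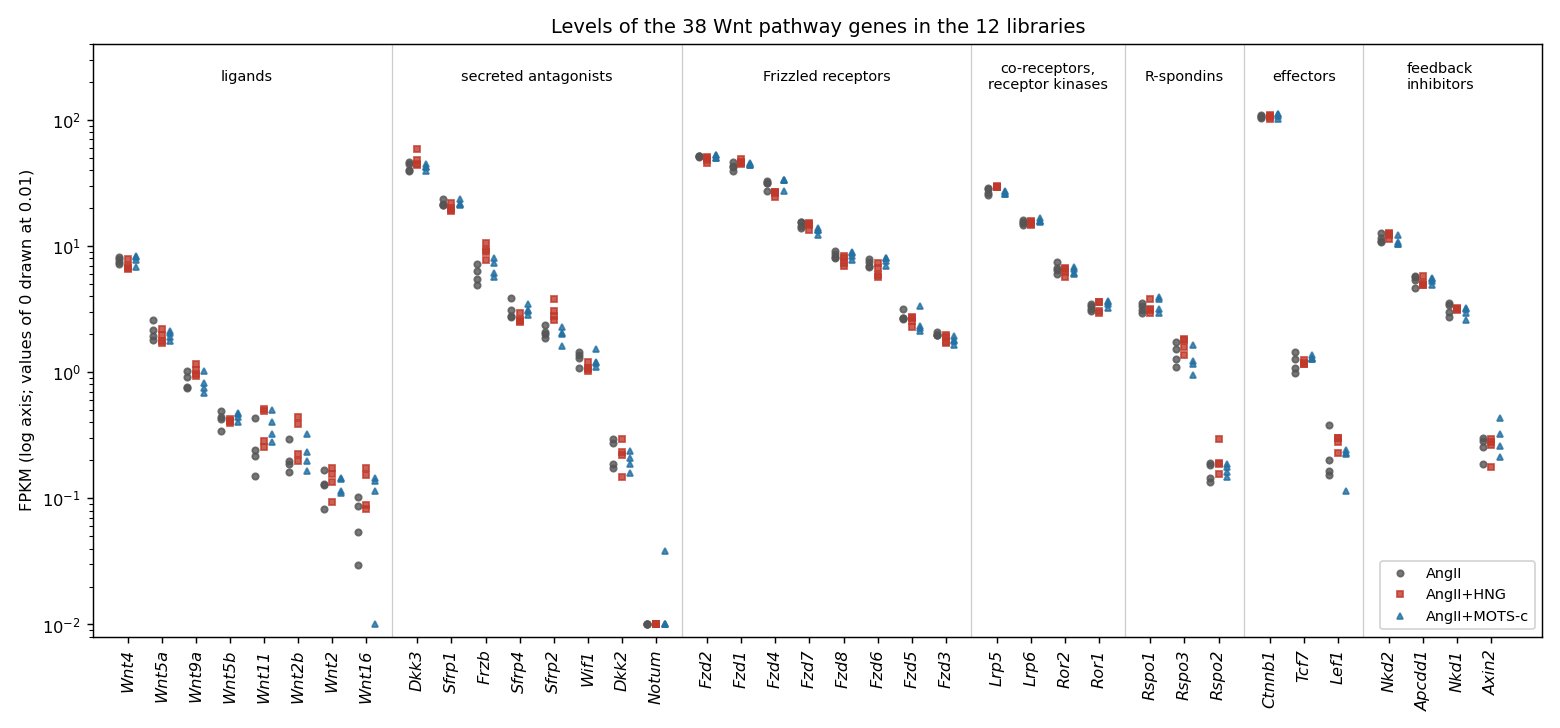
Points give the FPKM of each of the 38 Wnt pathway genes in each of the 12 libraries on a log axis, grouped by role and colored by treatment, with values of 0 drawn at 0.01. Ctnnb1 lies highest at 102 to 112 FPKM, Notum lies at 0 in 11 libraries, and for most genes the 3 treatments overlap.

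The comparison of AngII+HNG with AngII asked which of these genes differed when HNG was added to AngII. Of the 36 genes tested, 2 were higher and 1 was lower with HNG at an adjusted p below 0.05 by edgeR, a share of 8.33%, while 5.98% of all 14524 genes tested were called, 3.4% higher and 2.58% lower. The share among Wnt pathway genes was therefore near the background. At an unadjusted p below 0.05 the shares were 25% of the 36 genes and 20.3% of all genes, and groups without overlap were seen for 6 of the 36 genes, or 16.7%, against 13.6% of all genes. The 3 genes that passed were the antagonists Frzb and Sfrp2 and the receptor Fzd4. DESeq2 called the same 3 genes, and 8.57% of the 13906 genes it tested. The median log2 fold change was −0.03 over the 36 genes and 0.00 over all genes tested, and 63.9% of the 36 genes had a log2 fold change below 0, against 48.7% of all genes.

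Frzb, also named Sfrp3, encodes a secreted protein with a Frizzled-like ligand-binding domain. Its level was 14.1, 15.7, 18.1 and 21.1 CPM in the AngII libraries of replicates 1 to 4, and 25.8, 22.0, 26.3 and 30.2 CPM in the AngII+HNG libraries. All 4 HNG libraries lay above the highest AngII library, by a narrow margin for replicate 2. Frzb rose by 0.60 on the log2 scale (SE 0.118, 95% interval 0.34 to 0.85), a ratio of 1.51, with an adjusted p of 0.0103 by edgeR. It stayed below the threshold in 17 of 17 alternative analyses, with adjusted p from 9.5e-05 to 0.0452. Without the AngII+HNG library of replicate 3 the log2 fold change was 0.59, with an adjusted p of 0.0159 by edgeR.

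Sfrp2 encodes another secreted Frizzled-related protein, known from work on fibrosis as both a Wnt modulator and a partner of procollagen processing. Its level was 3.91, 4.37, 4.20 and 4.99 CPM in the AngII libraries and 5.40, 6.29, 5.68 and 7.82 CPM in the AngII+HNG libraries. The groups did not overlap, and replicate 4 was the highest library in both. Sfrp2 rose by 0.53 on the log2 scale (SE 0.131, 95% interval 0.25 to 0.82), a ratio of 1.45, with an adjusted p of 0.0310 by edgeR. The call held in 10 of 17 alternatives. It was lost without the AngII library of replicate 1, 2 or 3 (edgeR adjusted p 0.109, 0.0861 and 0.0867), without the AngII+HNG library of replicate 2 or 4 (0.0740 and 0.0850), without all libraries of replicate 4 (0.0559) and with replicates 2 and 3 summed (0.0759). Without the AngII+HNG library of replicate 3 it held, at an adjusted p of 0.0277 by edgeR.

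Fzd4 encodes a Frizzled receptor that also binds the non-Wnt ligand norrin and is known for its role in vessel growth. Its level was 227, 222, 222 and 193 CPM in the AngII libraries and 185, 187, 182 and 167 CPM in the AngII+HNG libraries. Every HNG library lay below every AngII library, although the AngII library of replicate 4 was close to the HNG values. Fzd4 fell by 0.26 on the log2 scale (SE 0.0550, 95% interval −0.38 to −0.14), a ratio of 0.837, with an adjusted p of 0.0151 by edgeR. The call held in 11 of 17 alternatives and was lost without the AngII library of replicate 1, 2 or 3 (edgeR adjusted p 0.0660, 0.0590 and 0.0537), with replicates 2 and 3 summed (0.0529) and with limma on log2 FPKM (0.0572 and 0.0547). Without the AngII+HNG library of replicate 3 it held, at an adjusted p of 0.0168 by edgeR.

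**Figure D2:**
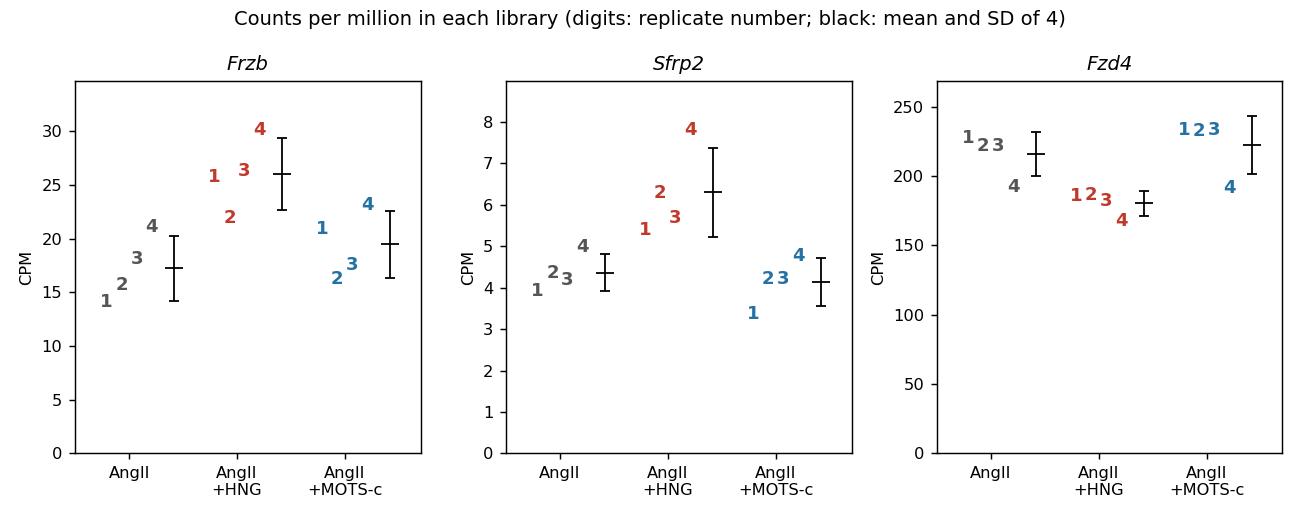
Digits mark the CPM of Frzb, Sfrp2 and Fzd4 in each library by replicate number, for AngII, AngII+HNG and AngII+MOTS-c, and the black bar gives the mean and SD of the 4 libraries of a treatment. For Frzb and Sfrp2 the AngII+HNG libraries lie above the AngII libraries, for Fzd4 they lie below them, and the libraries of replicate 4 are the highest for Frzb and Sfrp2 and the lowest for Fzd4 in each treatment.

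The libraries of replicate 4 stood at one end for these genes in all treatments. Replicate 4 was the highest library of each of the 3 treatments for 7 of the 36 genes, namely Wnt4, Sfrp1, Sfrp2, Frzb, Dkk3, Lrp5 and Apcdd1, or 19.4%, against 5.23% of 14352 genes tested in all comparisons. It was the lowest in each treatment for Fzd4 and Rspo1. Without all libraries of replicate 4, Frzb had a log2 fold change of 0.63 with HNG (edgeR adjusted p 0.00734) and Fzd4 one of −0.27 (edgeR adjusted p 0.00385), while the call of Sfrp2 was lost, at 0.48 (edgeR adjusted p 0.0559).

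Markers of other cell types were compared between the same libraries. Of all 14524 genes tested, edgeR called 3.4% higher and 2.58% lower with HNG. The summed level of 7 endothelial markers was 69.1 to 77.9 CPM with AngII and 88.8 to 98.0 CPM with AngII+HNG, without overlap. Of the 7, 3 were called higher and 1 had a log2 fold change below 0. Smooth muscle and pericyte markers summed to 756.6 to 801.5 CPM with AngII and 580.2 to 667.1 CPM with AngII+HNG, also without overlap, with 2 of 6 called lower. The sums of 9 macrophage markers overlapped, at 126.6 to 154.8 CPM with AngII and 150.6 to 205.1 CPM with AngII+HNG, with 3 of 8 tested called higher and 3 of 8 having log2 fold changes below 0, down to −0.43. Among the other lists, 2 of 9 fibroblast, 1 of 8 cardiomyocyte and 1 of 6 epicardial and mesothelial markers were called higher, and 0 of 4 tested Schwann cell markers were called by edgeR. In these lists 2, 2, 3 and 1 markers had log2 fold changes below 0. None of these marker lists had a gene at 0 in all libraries, and the part of other cells in the changes of Frzb, Sfrp2 and Fzd4 was not tested. In bulk RNA, fewer cells of a type and less RNA per cell cannot be told apart.

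The other secreted antagonists did not pass the test, and their values pointed in both directions. Dkk3 was measured at 252, 247, 250 and 282 CPM with AngII and at 276, 269, 293 and 310 CPM with AngII+HNG. The groups overlapped through the AngII library of replicate 4. The log2 fold change was 0.16 (SE 0.0546) with an adjusted p of 0.117 by edgeR. Dkk3 was not called in 15 of 17 alternatives, with adjusted p up to 0.312, and was called without that library (edgeR adjusted p 0.0398) and with the replicate number as a block (0.0193). Sfrp1 and Sfrp4 had log2 fold changes of −0.14 and −0.28, with unadjusted p of 0.0181 and 0.0382 and adjusted p of 0.145 and 0.216 by edgeR. Wif1 and Dkk2 had log2 fold changes of −0.26 and −0.09. On the FPKM scale, Frzb accounted for 15.8% to 19.6% of the summed level of Sfrp1, Sfrp2, Sfrp4 and Frzb with AngII and for 23.6% to 27.4% with AngII+HNG. The share of Sfrp1 was 63.5% to 68.1% with AngII and 55.9% to 59.5% with AngII+HNG. The summed level of the 4 genes overlapped between the groups, at 31.0 to 37.1 FPKM with AngII and 32.7 to 38.8 FPKM with AngII+HNG.

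Among the Frizzled receptors, 7 of 8 had log2 fold changes below 0 with HNG, also under the RLE and DESeq2 size factors, but only Fzd4 passed the test. The median over the 8 receptors was −0.15. Fzd2, the most abundant, was measured at 105, 102, 104 and 105 CPM with AngII and at 91.3, 96.2, 98.6 and 100 CPM with AngII+HNG. All 4 HNG libraries lay below the AngII libraries, and the log2 fold change was −0.10 (SE 0.0392) with an adjusted p of 0.158 by edgeR. Fzd3 and Fzd8 were also lower without overlap, with log2 fold changes of −0.15 and −0.19 and adjusted p of 0.419 and 0.101 by edgeR. Fzd6 had the largest log2 fold change below 0 after Fzd4, at −0.21 (SE 0.0813, edgeR adjusted p 0.161), with overlapping groups. Fzd6 and Fzd8 were called with the replicate number as a block, and Fzd6 also without AngII+HNG replicate 1. Groups without overlap, all of them lower, were thus seen for 4 of the 8 receptors, where 6.56% of all genes tested were lower without overlap. Fzd1 was the 1 receptor with a value above 0, at 0.10. With MOTS-c against AngII, 5 of the 8 receptors had log2 fold changes below 0. Between the peptides, 4 were below 0 and 4 above, with a median of −0.04. Groups without overlap were seen for 2 of the 8 in each of these comparisons, against 3.44% and 12.5% of all genes tested.

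Ligands, co-receptors and R-spondins held 0 calls by edgeR and 0 by DESeq2 with HNG, and 0 at an unadjusted p below 0.05, where the shares of all genes were 5.98%, 8.57% and 20.3%. Wnt4, a ligand that acts in both branches in different tissues, was measured at 26.4, 27.7, 28.3 and 31.0 CPM with AngII and at 25.0, 25.1, 24.4 and 30.4 CPM with AngII+HNG. The HNG libraries of replicates 1 to 3 lay below all AngII libraries while that of replicate 4 lay within their range, and the log2 fold change was −0.11 (SE 0.0759) with an adjusted p of 0.470 by edgeR. Ligands near 1 CPM or below had wide intervals, from −0.20 to 1.23 on the log2 scale for Wnt2b and from −0.33 to 1.03 for Wnt11. These intervals include sizeable differences, which may have been missed.

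Lrp5 was measured at 152, 136, 140 and 155 CPM with AngII and at 154, 155, 155 and 157 CPM with AngII+HNG. Of the HNG libraries, 3 of 4 lay above every AngII library and the other lay just below the highest AngII library, and the log2 fold change was 0.10 (SE 0.0446) with an adjusted p of 0.254 by edgeR. Lrp6, Ror1 and Ror2 had log2 fold changes of −0.04, 0.00 and −0.11. Rspo1, which amplifies Wnt responses by sparing receptors from degradation, was measured at 7.72, 7.19, 8.15 and 6.80 CPM with AngII and at 7.15, 7.08, 8.55 and 6.69 CPM with AngII+HNG. These groups overlapped, with a log2 fold change of −0.02 (SE 0.103, edgeR adjusted p 0.953).

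The 3 transcriptional effectors and 4 feedback inhibitors held 0 calls by edgeR or DESeq2 with HNG, and 0 at an unadjusted p below 0.05, where 5.98% of all genes were called by edgeR. Ctnnb1 was measured at 406, 389, 417 and 404 CPM with AngII and at 407, 396, 382 and 402 CPM with AngII+HNG. The groups overlapped, and the log2 fold change of −0.02 had a 95% interval of −0.10 to 0.06. Axin2, a direct target of β-catenin in many tissues, was measured at 0.893, 1.23, 1.43 and 1.36 CPM with AngII and at 0.853, 1.31, 1.30 and 1.18 CPM with AngII+HNG. The groups overlapped fully, and with 24 to 63 counts per library the 95% interval of its log2 fold change ran from −0.53 to 0.40. Nkd2 was measured at 46.0, 49.7, 53.7 and 47.7 CPM with AngII and at 53.4, 52.2, 53.7 and 48.7 CPM with AngII+HNG. Its groups overlapped, with a log2 fold change of 0.08 (SE 0.0560, edgeR adjusted p 0.479). Nkd1, Apcdd1, Tcf7 and Lef1 had log2 fold changes of −0.01, −0.07, −0.03 and 0.28, and reads of Lef1 may be shared with an annotated overlapping copy named Lef1l.

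**Figure D3:**
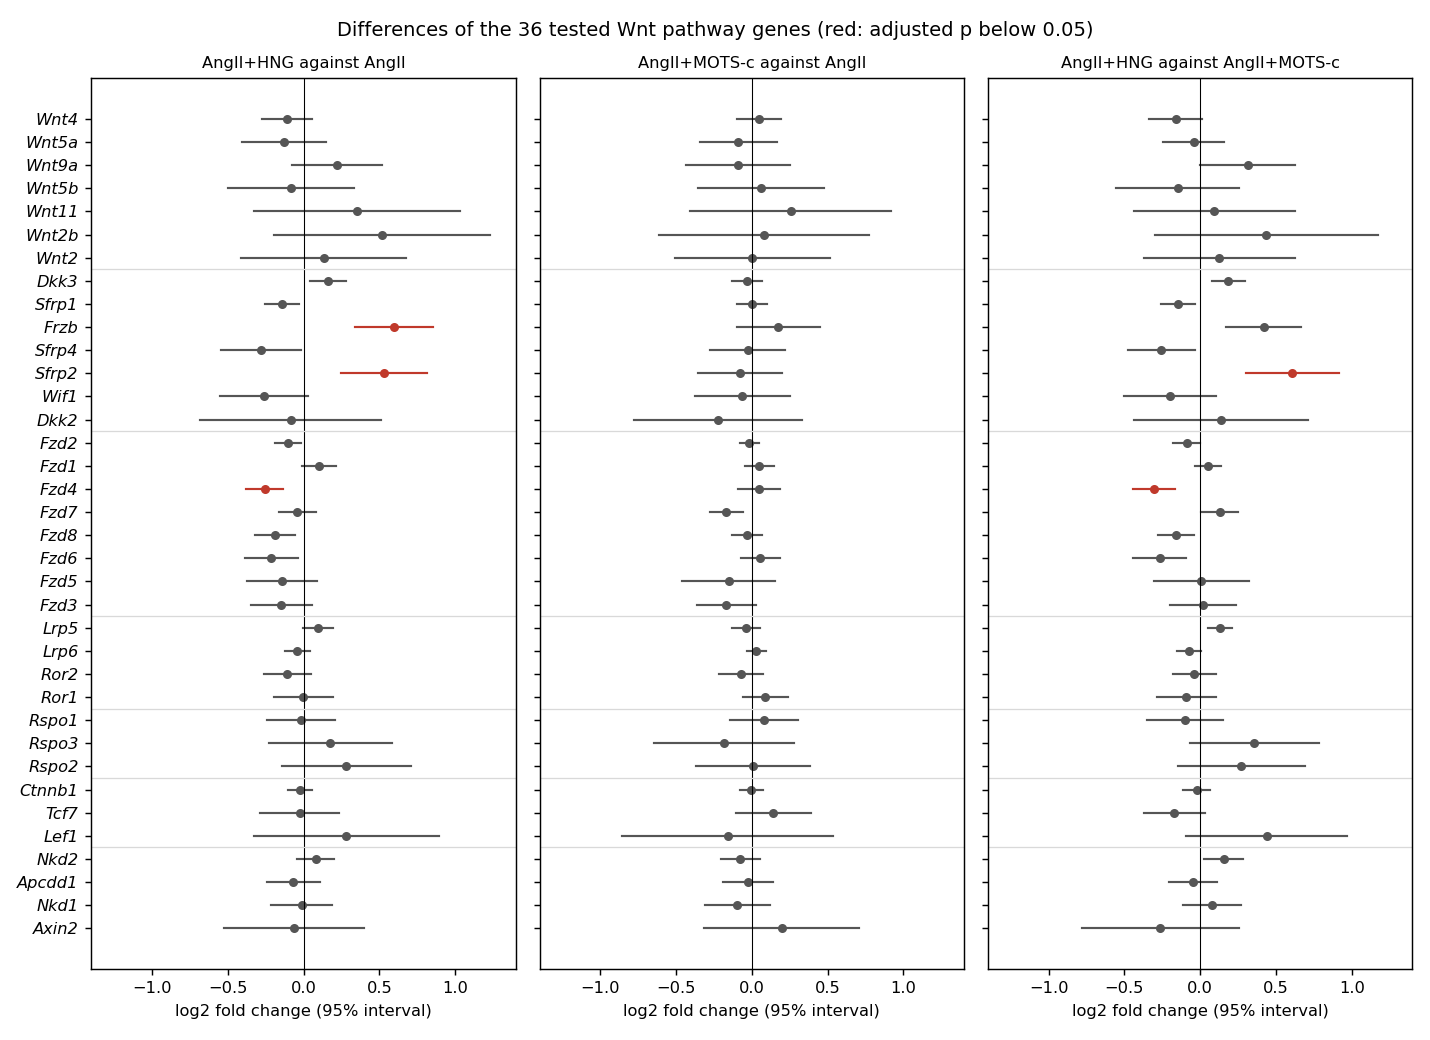
Points give the log2 fold change of each of the 36 tested genes and lines its 95% interval from edgeR, for AngII+HNG against AngII, AngII+MOTS-c against AngII and AngII+HNG against AngII+MOTS-c, with genes in order of role and FPKM and adjusted p below 0.05 in red. Frzb, Sfrp2 and Fzd4 are red on the left, no gene is red in the middle, and Sfrp2 and Fzd4 are red on the right.

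The comparison of AngII+MOTS-c with AngII asked the same for the other peptide. Of the 36 genes, 0 were called by edgeR and 0 by DESeq2, while 0.0069% of 14488 genes tested were called by edgeR and 0.0221% of 18075 genes by DESeq2. At an unadjusted p below 0.05 by edgeR, 1 of the 36 genes was found, or 2.78%, against 5.05% of all genes. Both counts were near the background. The gene was Fzd7, a receptor known for noncanonical as well as canonical signaling, and its level was 45.6, 42.5, 41.0 and 46.2 CPM with AngII and 36.2, 40.7, 39.3 and 39.8 CPM with AngII+MOTS-c. The groups did not overlap, and the log2 fold change was −0.17 (SE 0.0506) with an adjusted p of 0.924 by edgeR. Fzd3 was the other gene without overlap, also lower, so that 5.56% of the 36 genes had groups without overlap, against 3.44% of all genes.

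The genes that had passed with HNG were measured with MOTS-c as follows. Frzb stood at 20.9, 16.2, 17.5 and 23.2 CPM, a range that overlapped that of AngII, with a log2 fold change of 0.18 (95% interval −0.10 to 0.45). Sfrp2 stood at 3.36, 4.21, 4.21 and 4.78 CPM, with a log2 fold change of −0.08 (95% interval −0.36 to 0.20). Fzd4 stood at 234, 233, 233 and 191 CPM, where replicate 4 was far below the other libraries, with a log2 fold change of 0.05 (95% interval −0.09 to 0.19).

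The direct comparison of AngII+HNG with AngII+MOTS-c tested whether the cells differed between the peptides. It shares the AngII+HNG libraries with the first comparison and the AngII+MOTS-c libraries with the second. Of the 36 genes, 1 was higher and 1 was lower with HNG by edgeR, a share of 5.56%, against 4.41% of 14448 genes tested, 2.64% higher and 1.77% lower. The share was again near the background. Sfrp2 was higher with HNG by 0.61 on the log2 scale (SE 0.141, 95% interval 0.30 to 0.91, edgeR adjusted p 0.0291) and was higher in 4 of 4 HNG libraries than in any MOTS-c library. Fzd4 was lower by 0.31 (log2 fold change −0.31, SE 0.0635, 95% interval −0.44 to −0.17, edgeR adjusted p 0.0158), with no overlap. Each of these calls held in 10 of 17 alternatives, and both were lost with replicates 2 and 3 summed (edgeR adjusted p 0.0707 and 0.0618), without the AngII+HNG library of replicate 4 (0.0826 and 0.0529) and without the AngII+MOTS-c library of replicate 1 (0.0950 and 0.0616), 2 (0.0785 and 0.0631) or 3 (0.0729 and 0.0562). Sfrp2 alone was also lost without the AngII+HNG library of replicate 2 (0.0720) and without all libraries of replicate 4 (0.0627), and Fzd4 alone with limma on log2 FPKM (0.0592 and 0.0565). Endothelial markers summed to 72.6 to 77.3 CPM with AngII+MOTS-c, below all HNG libraries, and 2 of 7 were called higher with HNG by edgeR. Smooth muscle and pericyte markers summed to 703.6 to 803.3 CPM with AngII+MOTS-c, above all HNG libraries. Of these 6, 1 was called lower and 1 had a log2 fold change above 0. Of 8 macrophage markers, 2 were called higher and 3 had log2 fold changes below 0, down to −0.67. Also called higher were 2 of 9 fibroblast, 1 of 8 cardiomyocyte and 1 of 6 epicardial and mesothelial markers, with 2, 0 and 3 below 0. The part of other cells in the differences of Sfrp2 and Fzd4 was not tested.

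Frzb did not pass the test between the peptides. Its log2 fold change was 0.42 (SE 0.115, 95% interval 0.17 to 0.67) with an adjusted p of 0.0583 by edgeR, and 4 of 17 alternatives called it, among them DESeq2 at 0.0120. The HNG libraries of Dkk3 and Lrp5 lay above all MOTS-c libraries, with log2 fold changes of 0.19 and 0.13 and adjusted p of 0.0596 and 0.0596 by edgeR. DESeq2 called 6 of the 36 genes in this comparison, namely Dkk3, Frzb, Fzd4, Fzd6, Lrp5 and Sfrp2, or 16.7%, against 7.62% of all genes it tested. Groups without overlap were seen for 7 of the 36 genes, or 19.4%, against 12.5% of all genes.

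**Figure D4:**
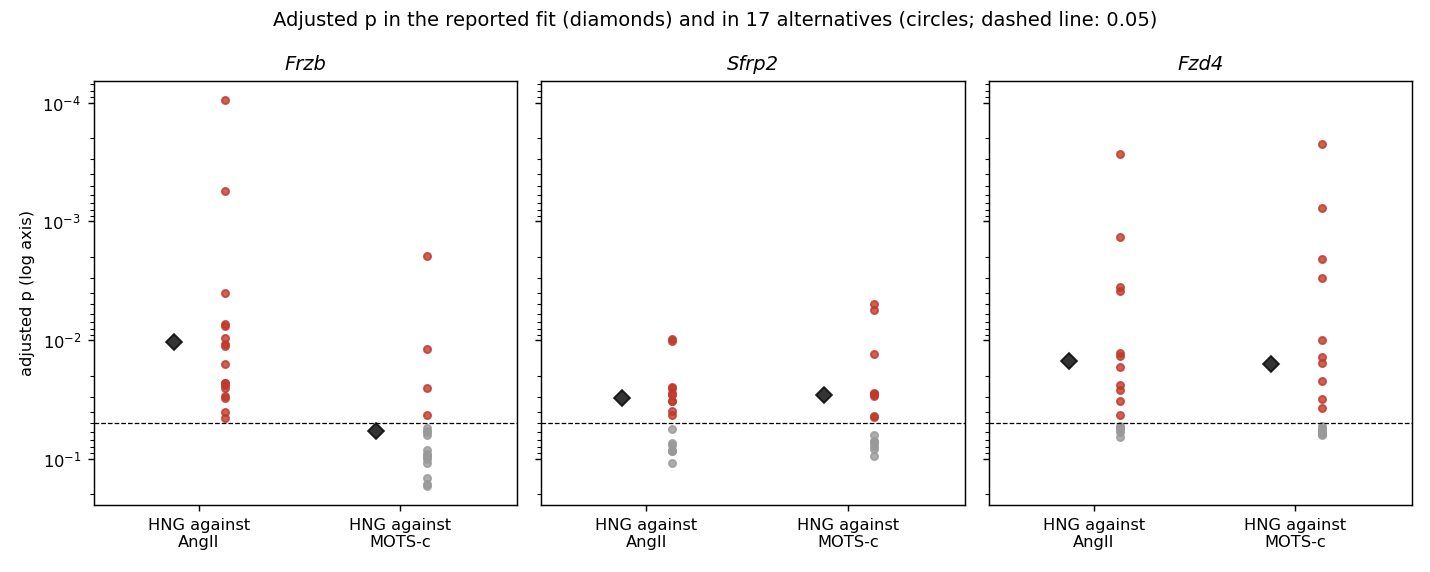
Adjusted p of Frzb, Sfrp2 and Fzd4 on a reversed log axis, for HNG against AngII and HNG against MOTS-c, in the reported fit as diamonds and in 17 alternatives as circles, with the threshold of 0.05 as a dashed line and circles past it in red. Frzb stays past the threshold in all 17 alternatives against AngII and in 4 of 17 against MOTS-c, whereas Sfrp2 and Fzd4 lie on both sides of it.

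Promoters were examined because TCF/LEF factors bind DNA with the core letters CTTTG, and a target may carry them near its start. Of the 38 genes, 26 had a promoter in the RefSeq table, each running from 250 bases before to 50 bases after the start site. A motif of CTTTG followed by 2 letters that are each A or T, searched on both strands, was found in 4 of the 26, namely Axin2, Fzd7, Nkd1 and Tcf7, or 15.4%, and in 17.1% of all 33469 promoters. With a further C in front it was found in 3 of the 26, or 11.5%, and in 4.81% of all. The core CTTTG alone was found in 9 of the 26, or 34.6%, and in 53.8% of all. The 250 bases before the start of Frzb, Sfrp2, Fzd4, Axin2 and Nkd1 are printed 5′ to 3′ on the strand of the gene, with the motif in capitals. They come from RefSeq in the build GRCr8, while the build used for the counts is not given in the sources used here, and lie at chr3:85772097-85772346 (minus strand), chr2:171387286-171387535 (plus), chr1:152692257-152692506 (plus), chr10:94398535-94398784 (plus) and chr19:34722847-34723096 (minus).
Frzb: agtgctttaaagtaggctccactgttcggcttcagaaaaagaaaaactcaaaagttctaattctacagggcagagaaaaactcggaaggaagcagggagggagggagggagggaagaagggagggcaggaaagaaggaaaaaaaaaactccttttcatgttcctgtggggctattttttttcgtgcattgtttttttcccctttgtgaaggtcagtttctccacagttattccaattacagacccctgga
Sfrp2: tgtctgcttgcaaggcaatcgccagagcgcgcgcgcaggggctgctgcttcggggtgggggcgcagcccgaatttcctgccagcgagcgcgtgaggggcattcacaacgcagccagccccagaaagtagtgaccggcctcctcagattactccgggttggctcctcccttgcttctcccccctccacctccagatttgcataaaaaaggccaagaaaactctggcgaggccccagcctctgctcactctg
Fzd4: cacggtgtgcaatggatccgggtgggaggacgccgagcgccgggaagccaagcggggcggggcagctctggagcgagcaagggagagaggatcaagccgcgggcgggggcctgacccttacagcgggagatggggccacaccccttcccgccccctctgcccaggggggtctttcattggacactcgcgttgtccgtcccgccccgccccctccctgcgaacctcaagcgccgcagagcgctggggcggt
Axin2: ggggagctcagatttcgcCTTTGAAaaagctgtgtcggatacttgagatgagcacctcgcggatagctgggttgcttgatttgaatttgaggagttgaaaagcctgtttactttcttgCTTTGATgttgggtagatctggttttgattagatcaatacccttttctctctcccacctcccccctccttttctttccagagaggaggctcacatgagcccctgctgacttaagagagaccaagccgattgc
Nkd1: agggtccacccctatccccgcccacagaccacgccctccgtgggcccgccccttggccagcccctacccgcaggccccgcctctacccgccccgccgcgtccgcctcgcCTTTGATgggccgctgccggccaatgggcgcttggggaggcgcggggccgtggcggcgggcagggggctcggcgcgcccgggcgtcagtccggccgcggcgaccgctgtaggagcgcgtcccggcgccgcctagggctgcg
The promoters of Sfrp2, Frzb and Fzd4 held no match to the motif in these windows, and that of Frzb held the core CTTTG once, beginning 50 bases before the start. Axin2 held the motif at 2 places, beginning 232 and 132 bases before the start, and Nkd1 at 1 place, 141 bases before the start. The other feedback inhibitors, Nkd2 and Apcdd1, held no match and are not printed. The share of G and C over the 300-base windows was 65% for Sfrp2, 45.3% for Frzb and 70.7% for Fzd4, against a median of 51.7% over all promoters. Of the 4 genes with the motif, Axin2 and Nkd1 had overlapping groups in all 3 comparisons, Fzd7 was lower without overlap with MOTS-c than with AngII alone, and Tcf7 was lower without overlap with HNG than with MOTS-c, and 0 of the 4 were called by edgeR.

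Other genes of the pathway were counted over a list of 83 further components, of which 66 were tested in each comparison. The list was chosen with earlier results of these data known, so that its shares are a description and not a test. With HNG, 2 rose and 5 fell by edgeR, a share of 10.6%, against 5.98% of all genes tested, and their median log2 fold change was −0.04. With MOTS-c 0 of the 66 were called by edgeR and 0 by DESeq2, against 0.0069% and 0.0221% of all genes, and 2 had an unadjusted p below 0.05 by edgeR, against 5.05% of all genes. Between the peptides 2 were higher and 5 lower with HNG, again 10.6%, against 4.41% of all genes.

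Within this list of 83, the largest changes among the genes called with HNG lay in Ccn4, Ccnd1 and Gpc3. Ccnd1, which encodes the cell cycle regulator cyclin D1 and is a target of many pathways, was measured at 129, 135, 125 and 111 CPM with AngII and at 192, 199, 172 and 170 CPM with AngII+HNG. All 4 HNG libraries were higher, and Ccnd1 rose by 0.56 on the log2 scale (SE 0.0644, edgeR adjusted p 4.6e-04). With AngII+MOTS-c it stood at 111, 123, 118 and 108 CPM, below every HNG library, and the difference between the peptides was 0.68 (SE 0.0592, edgeR adjusted p 1.3e-04).

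Ccn4, formerly Wisp1, encodes a matricellular protein first described as induced by Wnt1. It was measured at 72.7, 61.8, 67.3 and 70.4 CPM with AngII, at 46.7, 42.0, 38.7 and 46.8 CPM with AngII+HNG and at 65.9, 64.8, 64.0 and 66.6 CPM with AngII+MOTS-c. The HNG libraries were the 4 lowest of the 12, and Ccn4 fell by 0.64 on the log2 scale against AngII (SE 0.0680, edgeR adjusted p 2.6e-04). The difference from MOTS-c was −0.59 (SE 0.0597, edgeR adjusted p 3.1e-04).

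Gpc3 and Gpc4 encode glypicans, heparan sulfate proteoglycans that hold Wnt ligands at the cell surface. Gpc3 was measured at 101, 106, 106 and 94.1 CPM with AngII and at 147, 152, 156 and 136 CPM with AngII+HNG. It rose by 0.54 on the log2 scale without overlap (SE 0.0526, edgeR adjusted p 1.5e-04). Gpc4 was measured at 476, 475, 482 and 431 CPM with AngII and at 423, 397, 413 and 394 CPM with AngII+HNG. It fell by 0.19 without overlap (SE 0.0436, edgeR adjusted p 0.0191), a call that held in 9 of 17 alternatives and was lost without AngII replicate 1, 2 or 3 or AngII+HNG replicate 2 or 4 (edgeR adjusted p 0.0544 to 0.0743), with replicates 2 and 3 summed (0.0690) and with limma on log2 FPKM (0.0611 and 0.0603). Annotated genes with placeholder names overlap Gpc3, Gpc4 and Wls, and the use of strand in the counting is not given in the sources used here.

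Wls, which carries lipid-modified Wnt ligands to the cell surface, was measured at 649, 643, 646 and 637 CPM with AngII and at 582, 560, 538 and 565 CPM with AngII+HNG. The spread within each treatment was small, and Wls fell by 0.20 on the log2 scale (SE 0.0349, edgeR adjusted p 0.00584). Daam1, a formin of the planar polarity branch, was measured at 120, 112, 124 and 130 CPM with AngII and at 107, 92.7, 94.4 and 105 CPM with AngII+HNG. It fell by 0.28 without overlap (SE 0.0571, edgeR adjusted p 0.0121).

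Cthrc1, a secreted protein known to favor the Ror2 branch and to mark activated fibroblasts, was measured at 72.0, 75.4, 84.5 and 92.8 CPM with AngII and at 56.8, 54.1, 62.3 and 74.0 CPM with AngII+HNG. It fell by 0.39 (SE 0.0965, edgeR adjusted p 0.0317), although the HNG library of replicate 4 lay within the AngII range, and the call held in 9 of 17 alternatives. It was lost without AngII replicate 2, 3 or 4 or AngII+HNG replicate 1 or 2 (edgeR adjusted p 0.0541 to 0.0998), with replicates 2 and 3 summed (0.0814) and with limma on log2 FPKM (0.0753 and 0.0689).

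Tnks, a tankyrase that marks Axin for degradation, was measured at 241, 208, 228 and 247 CPM with AngII, at 210, 194, 183 and 217 CPM with AngII+HNG and at 240, 230, 241 and 243 CPM with AngII+MOTS-c. The HNG libraries overlapped those of AngII and lay below all those of MOTS-c. Tnks did not pass against AngII, at −0.20 (SE 0.0618, edgeR adjusted p 0.0824), and 4 of 17 alternatives called it, among them DESeq2 (adjusted p 0.0252) and the replicate number as a block (edgeR adjusted p 0.0115). It was lower with HNG than with MOTS-c by −0.25 on the log2 scale (SE 0.0524, edgeR adjusted p 0.0170). Between the peptides Gpc3, Wls, Daam1 and Cthrc1 also differed by edgeR, with log2 fold changes of 0.56, −0.19, −0.33 and −0.37 and adjusted p of 0.00376, 0.0109, 0.00313 and 0.0441. The calls of Tnks and Cthrc1 between the peptides held in 12 and 7 of 17 alternatives. That of Tnks was lost without AngII+HNG replicate 2 (edgeR adjusted p 0.0505) or AngII+MOTS-c replicate 1 (0.0514), and that of Cthrc1 without AngII+HNG replicate 1, 2 or 3 or any 1 AngII+MOTS-c library (0.0610 to 0.112). Both were also lost with replicates 2 and 3 summed (edgeR adjusted p 0.0519 for Tnks) and with limma on log2 FPKM (0.0797 and 0.0770 for Tnks, 0.0913 and 0.0858 for Cthrc1).

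**Figure D5:**
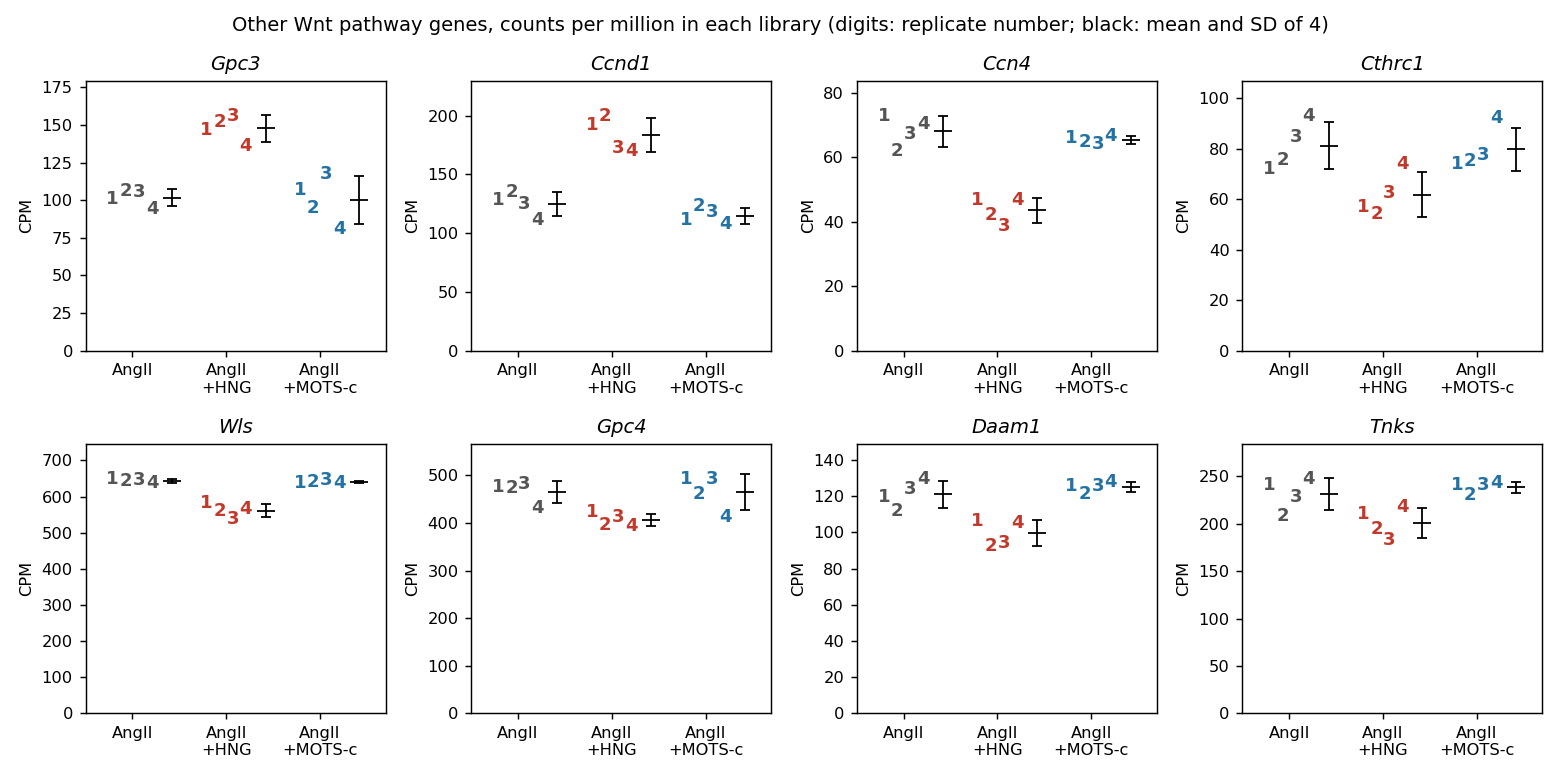
Digits mark the CPM of 8 further Wnt pathway genes in each library by replicate number, and the black bar gives the mean and SD of the 4 libraries of a treatment. The AngII+HNG libraries are the highest for Gpc3 and Ccnd1 and the lowest for Ccn4, Wls and Daam1, while the AngII and AngII+MOTS-c libraries overlap for each gene.

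On the FPKM scale, the summed level of the secreted antagonists divided by that of the ligands was 6.20 to 6.85 in the AngII libraries, 7.25 to 7.94 in the AngII+HNG libraries and 6.03 to 7.02 in the AngII+MOTS-c libraries. The HNG libraries lay above all others in this ratio, which is a description without a test. The FPKM per CPM of Dkk3 ran from 0.159 to 0.188 between libraries, and with 1 factor per gene over the 12 libraries, a setting chosen after seeing the data, the ratio was 6.39 to 7.03 with AngII, 7.23 to 7.62 with AngII+HNG and 6.12 to 7.09 with AngII+MOTS-c. The sums themselves overlapped between AngII and AngII+HNG, at 10.7 to 13.0 and 10.8 to 12.4 FPKM for the ligands and at 72.7 to 83.7 and 78.0 to 98.4 FPKM for the antagonists. Dkk3 made up 52.4% to 59.3% of the antagonist FPKM in the 12 libraries. It was counted as an antagonist by its family, and its action on Wnt signaling was not measured.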

How the data were processed

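RNA of the rat atrial fibroblasts was sequenced as 12 mRNA libraries, 4 for each treatment, on a DNBSEQ platform with paired-end reads. The submitters' processing notes name HISAT2, Picard 1.41 and SAMtools 0.1.18, and the counting tool, use of strand, genome build and annotation are not given in the sources used here. The authors deposited read counts per gene that are whole numbers and not normalized, and also deposited FPKM values, which scale expression by length and library size, by a method not given in the sources used here. FPKM did not follow the counts by 1 fixed factor per gene. Among 20 of the 38 genes with at least 200 counts in every library, FPKM per CPM differed between libraries by a median of 1.02 times and by more than 1.05 times for 5, up to 1.18 times for Dkk3. Treatments and replicate numbers were taken from the sample titles. The 38 genes and all lists were chosen with earlier results of these data known.

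Tests on the counts used edgeR 4.0.16 under R 4.3.3 (filterByExpr, TMM, glmQLFit and glmQLFTest, two-sided, 8 libraries per comparison), with Benjamini-Hochberg adjustment over all genes tested and a threshold of 0.05. CPM were scaled over all 12 libraries. Standard errors were derived from the F statistic. The fit was tested on simulated counts. Values by library, mostly for AngII and AngII+HNG, are given for genes called in any comparison, for the most abundant gene of each role and for called genes of the list of 83, and Fzd7 and the remaining genes were picked once values were known.

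Alternatives were DESeq2 1.42.0, RLE size factors, no filter, all 12 libraries in one fit, the replicate number as a block, replicates 2 and 3 summed, limma 3.58.1 on log2 of FPKM plus 1 or plus 0.1, omission of all libraries of replicate 4, and omission of each library in turn. The 38 genes were matched to RefSeq by symbol, and all 38 were found, of which 10 overlap another annotated gene. At 27960586 to 38322354 counts per library, genes near 1 CPM rest on few counts.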

Additional observations from a re-analysis of the deposited data

Results flagged for a closer look

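Among 112 groups of 4 libraries with counts of the 38 genes, 11 held a library far from the other 3 by Dixon's criterion, and chance alone flags about 1 in 20 groups. Replicate 4 was the distant library in 7 of them. With AngII it gave the highest level of Sfrp1, 97.1 CPM against 86.3 to 88.1 CPM, the highest level of Dkk3, 282 CPM against 247 to 252 CPM, and the lowest level of Fzd4, 193 CPM against 222 to 227 CPM. With AngII+MOTS-c it gave the highest level of Sfrp1, 96.9 CPM against 86.3 to 88.0 CPM, the lowest level of Fzd4, 191 CPM against 233 to 234 CPM, and the lowest level of Lef1, 0.459 CPM against 0.879 to 0.911 CPM. With AngII+HNG it gave the highest level of Wnt4, 30.4 CPM against 24.4 to 25.1 CPM.

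Replicate 2 was distant in the other groups. It gave the highest level of Fzd5, at 5.85 CPM against 4.89 to 5.04 CPM with AngII and at 6.18 CPM against 3.96 to 4.32 CPM with AngII+MOTS-c. It gave the highest level of Fzd3 with AngII, at 6.02 CPM against 5.75 to 5.76 CPM, and the only counts of Notum, at 0.107 CPM with AngII+MOTS-c.

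Differences between HNG and MOTS-c that passed the test by edgeR were found for 2 of the 36 tested genes and 7 of the 66 tested on the list of further components, where 4.41% of all genes were called. Higher with HNG were Sfrp2 by 0.61, Gpc3 by 0.56 and Ccnd1 by 0.68 on the log2 scale. The log2 fold changes of the genes lower with HNG were −0.31 for Fzd4, −0.19 for Wls, −0.37 for Cthrc1, −0.25 for Tnks, −0.33 for Daam1 and −0.59 for Ccn4.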

How the results depend on the processing

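With HNG, 3 Wnt pathway genes were called in the reported fit, 7 with the replicate number as a block, which added Dkk3, Fzd6, Fzd8 and Sfrp1, 1 with replicates 2 and 3 summed, and 1 to 4 when each library was left out in turn. Of all genes tested, 869 were called with HNG, against 577 with replicates 2 and 3 summed, 541 without all libraries of replicate 4 and 431 to 932 when each library was left out. With MOTS-c, 0 Wnt pathway genes were called in the reported fit and in all 17 alternatives, and the count over all genes went from 1 to 4 with DESeq2, 2 with the block and 0 with all 12 libraries in one fit, with replicates 2 and 3 summed and without replicate 4, and was 0 to 3 when each library was left out. Between the peptides, 2 Wnt pathway genes were called, against 6 with DESeq2 and 6 with the block. The block called Dkk3, Frzb, Fzd4, Lrp5, Sfrp1 and Sfrp2. The count was 0 with replicates 2 and 3 summed, 1 with each limma setting, 1 without replicate 4 and 0 to 4 when each library was left out. Over all genes the count went from 637 to 1034 with DESeq2, 975 with all 12 libraries in one fit, 1054 with the block and 377 without replicate 4, and was 322 to 625 when each library was left out. The cause of these differences was not tested. Where libraries were left out or summed, the fit also had fewer libraries.

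Some small differences changed sign. When each library was left out in turn, the log2 fold change with MOTS-c ran from −0.154 to 0.0108 for Sfrp2, above 0 without the AngII+MOTS-c library of replicate 1, and from −0.0058 to 0.112 for Fzd4, below 0 without the AngII library of replicate 4. That of Rspo1 with HNG ran from −0.0976 to 0.0284 and was above 0 without AngII replicate 3, AngII+HNG replicate 2 or AngII+HNG replicate 4. The replicate number was not used as a block in the reported fit because the study compared groups in pairs and its methods name no block. Libraries with the same number deviated together in some pairs and not in others. Their deviations from the group means correlated at −0.0757 to 0.136 between AngII and AngII+HNG, at −4.3e-05 to 0.119 between AngII and AngII+MOTS-c and at −0.0138 to 0.212 between the peptides. The highest correlation in each comparison was that of replicate 4.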
